A study of Sus scrofa with 6 samples.

Results

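miR-103 and miR-107 are near-identical microRNAs (miRNAs, short RNAs that guide repression of messenger RNAs), and they were taken by name from the tables of mature pig miRNAs. The names ssc-miR-103 and ssc-miR-107 were both found, so the members number 2 of 326 listed names. In mammals these miRNAs lie in introns of the PANK genes, which encode pantothenate kinases, the enzymes of the first step of coenzyme A synthesis. In the RefSeq annotation of the Sscrofa11.1 assembly MIR103-1 lies within the span of PANK3, MIR103-2 within PANK2 and MIR107 within PANK1. The mature miR-103 is therefore a single listed name for 2 genes, and miR-107 has 1 gene. In mice miR-103 and miR-107 are known to lower insulin sensitivity, and in human cells they repress DICER1, the enzyme that cuts miRNA precursors. In mouse oocytes the repression of targets by miRNAs is known to be weak.

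Small RNA was sequenced from denuded pig oocytes, freed of their cumulus cells, of prepubertal gilts whose ovaries came from an abattoir. The LO group holds oocytes of large follicles, 3 to 6 mm across, drawn through a 20-gauge needle into a 10 mL syringe. The SO group holds oocytes of small follicles, less than 2 mm across, drawn through a 23-gauge needle into a 5 mL syringe. Each group had 3 libraries, called biological replicates in the series design. The sources used here do not give the number of animals or oocytes behind a library. The library is therefore the unit of every test, and p-values do not measure the spread between animals. Follicle size, needle and syringe differed together and cannot be told apart, and the libraries carry no treatment or gene change that would separate the groups further. Levels are in RPM, reads per 1000000 of the total to which the authors scaled each library.

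The mature sequences show how close the members are, and they are set beside relatives that hold the same core. They are given as the deposited tables have them, with T for U, from the 5′ to the 3′ end, and capitals mark the seed, bases 2 to 8, which pairs with target messenger RNAs.
miR-103: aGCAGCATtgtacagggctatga
miR-107: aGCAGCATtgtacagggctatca
miR-16: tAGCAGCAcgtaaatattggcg
miR-195: tAGCAGCAcagaaatattggc
miR-497: cAGCAGCAcactgtggtttgt
miR-503: tAGCAGCGggaacagtactgcag
Both members are 23 bases long and differ by 1 substitution, G22C, counted from the 5′ end with the miR-103 base first. The first 21 bases are shared, so a read that ends before base 22 cannot tell them apart. The sources used here do not say how such reads were assigned. No other listed name had fewer than 10 mismatches to either member over the first 20 bases, compared without gaps. The 6 letters AGCAGC begin at base 1 in both members and at base 2 in the relatives, so the member seeds are shifted by 1 base against those of miR-16, miR-195 and miR-497. Of the 326 listed names, 9 (2.76%) hold AGCAGC within bases 1 to 8, and the seed GCAGCAT is held by 2, the members themselves.

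miR-103 was the far more abundant member in every library. The reads named ssc-miR-103 numbered 425, 87 and 851 in the LO libraries, in the order of replicates 1 to 3, and 678, 692 and 721 in the SO libraries. As levels these were 738, 189 and 598 RPM in LO, against 354, 361 and 330 RPM in SO. LO replicates 1 and 3 lay above all 3 SO libraries, LO replicate 2 lay below them, and the groups overlapped. Group means were 508 ± 285 RPM for LO and 348 ± 16.4 RPM for SO (SD over 3 libraries). miR-103 ranked 9 to 13 among the listed names in LO libraries and 11 to 12 in SO libraries. By mean level over the 6 libraries it was number 10 of the 104 miRNAs with enough reads to test. Its neighbours there were let-7c at 458 ± 355 RPM, above it in 2 of 6 libraries, and miR-182 at 418 ± 72.1 RPM, above it in 4 of 6 (SD, n = 6), so the order around it was not fixed.

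miR-107 was a low-abundance miRNA in the same libraries. The reads named ssc-miR-107 numbered 20, 7 and 53 in the LO libraries and 51, 39 and 30 in the SO libraries, in replicate order. As levels these were 34.7, 15.2 and 37.2 RPM in LO, against 26.6, 20.3 and 13.7 RPM in SO. The groups overlapped, with LO replicate 2 again the lowest of its group. Group means were 29.0 ± 12.1 RPM for LO and 20.2 ± 6.46 RPM for SO (SD over 3 libraries). With 7 reads, the value of LO replicate 2 has a 95% exact Clopper-Pearson interval of 6.10 to 31.3 RPM, which covers all 3 SO values. Intervals on reads cover counting error only. miR-107 ranked 55 to 66 in LO libraries and 62 to 66 in SO libraries. By mean level it was number 65 of 104, between miR-374a-5p at 24.8 ± 8.41 RPM, above it in 4 of 6 libraries, and miR-423-5p at 22.7 ± 20.2 RPM, above it in 2 of 6 (SD, n = 6).

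**Figure D1:**
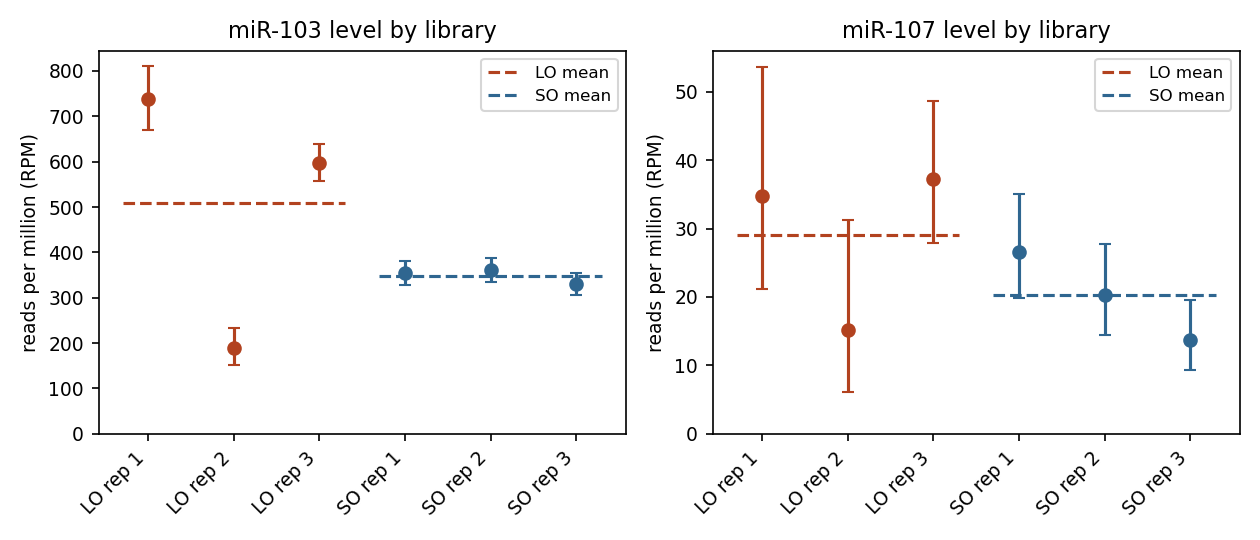
Level of miR-103 and of miR-107 in RPM (y axis, from 0) in each library (x axis), LO in red and SO in blue. Points are libraries, bars are 95% exact intervals from the read counts, and dashed lines are group means. For miR-103 the LO libraries run from 189 to 738 RPM around the SO libraries at 330 to 361 RPM, and for miR-107 the LO range of 15.2 to 37.2 RPM overlaps the SO range of 13.7 to 26.6 RPM.

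The first comparison set the paralogs against each other within a library, where scaling plays no part and both names have the same length. For each miR-107 read there were 21.3, 12.4 and 16.1 miR-103 reads in the LO libraries and 13.3, 17.7 and 24.0 in the SO libraries, in replicate order. miR-103 was higher in 6 of 6 libraries. The mean log2 ratio was 4.09 ± 0.37 (SD, n = 6), about 17.0-fold, with an exact two-sided sign-flip permutation p of 0.03125 over libraries, the smallest that 6 libraries can give. miR-103 thus took most of the reads assigned to the pair. miR-107 took 4.49%, 7.45% and 5.86% of them in LO and 7.0%, 5.34% and 3.99% in SO. How reads that end before base 22 were assigned is not known, and the sign-flip test cannot show it.

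The ratio did not separate the follicle groups. Ratios averaged 16.6 ± 4.43 over the LO libraries and 18.4 ± 5.40 over the SO libraries (SD, n = 3 each). The mean log2 ratio was 4.02 ± 0.39 in LO and 4.16 ± 0.43 in SO, which differ by -0.14 (p = 0.7 by exact two-sided permutation, where 3 against 3 cannot go below 0.1). Leaving out LO replicate 2 turned the difference to 0.05, and leaving out SO replicate 3 turned it to 0.08, so its sign rests on single libraries. Summed over a group, miR-107 held 80 of 1443 reads of the pair in LO (5.54%, 95% exact interval 4.42 to 6.85) and 120 of 2211 in SO (5.43%, 4.52 to 6.46). These intervals cover counting error only and leave out the spread between libraries. LO replicate 3 gave 904 of the 1443 reads. The SD of the log2 ratio over the 6 libraries, 0.37, lay close to the 0.33 that counting error alone gives at these read numbers. The read numbers of miR-107 therefore limit how small a difference in ratio can be seen.

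**Figure D2:**
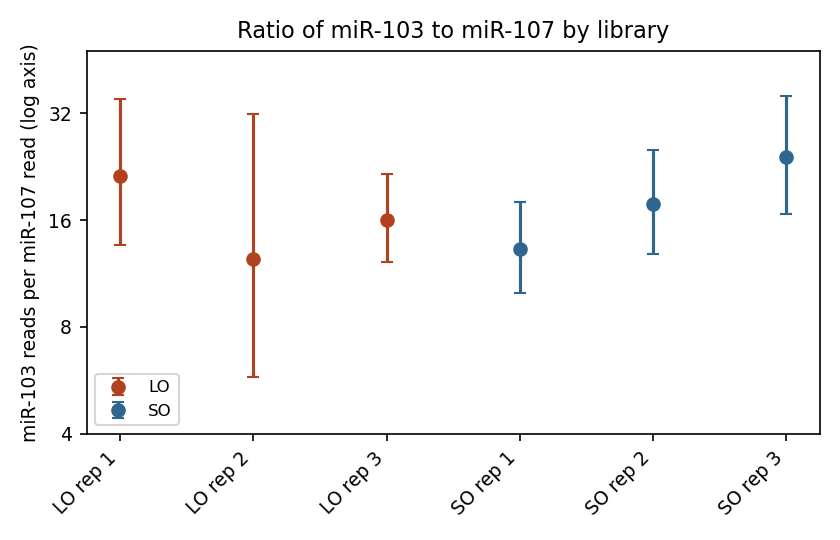
miR-103 reads per miR-107 read (y axis, log axis) in each library (x axis), LO in red and SO in blue. Points are libraries and bars are 95% exact intervals from the read counts. LO values run from 12.4 to 21.3 and SO values from 13.3 to 24.0, and every interval overlaps the others.

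The second comparison set LO against SO for each member, within a fit to all 104 tested miRNAs. By limma with an intensity trend on log2(RPM + 1) and Benjamini-Hochberg adjustment, 0 of 104 miRNAs (0%) passed a false discovery rate (FDR) of 0.05, and 4 had an unadjusted limma p under 0.05. Neither member was among them. miR-103 had a log2 fold change of 0.33 (limma SE 0.44, 95% interval -0.54 to 1.20, FDR 0.780), and miR-107 one of 0.45 (limma SE 0.61, 95% interval -0.76 to 1.66, FDR 0.780). For reference, the median log2 fold change of all 104 was 0.29, with 72 higher and 32 lower in LO, so both members lay near the middle of the table. Fold changes are on the log2(RPM + 1) scale, which understates changes of low miRNAs. The SE, interval and limma p follow the trend with abundance rather than the spread of the member itself. The within-group SD used was 0.54 for miR-103, whose own was 0.75, and 0.75 for miR-107, whose own was 0.59. Exact two-sided permutation of the library labels on log2(RPM + 1) gave p = 0.7 for miR-103 and p = 0.4 for miR-107.

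Scaling with TMM brought both members closer to no difference. edgeR's quasi-likelihood test with TMM on the recovered reads called 2 of 104 miRNAs (1.92%) and neither member, with log2 fold changes of 0.12 for miR-103 (FDR 0.820) and 0.24 for miR-107 (FDR 0.768). In that fit the median of all tested miRNAs was 0.10. Of the 104, 4 (3.85%) had LO and SO ranges in RPM that did not overlap, and neither member was one of them. All these values are relative to the reads of a library, so they do not give an amount of miRNA per oocyte.

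The miR-103 result turned on single LO libraries. Without LO replicate 2 the limma fit gave miR-103 a log2 fold change of 0.93 and an FDR of 0.0346. That fit called 18 of 104 miRNAs (17.3%), all higher in LO, with a median of 0.62 over all tested, and miR-107 was at 0.85 (FDR 0.230). Without LO replicate 1 miR-103 was at -0.05 (limma FDR 0.988) and miR-107 at 0.28 (FDR 0.987). edgeR with TMM without LO replicate 2, a fit chosen after the data were seen, gave miR-103 0.28 with an FDR of 0.579. That fit differs from the limma fit in both the test and the scaling.

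**Figure D3:**
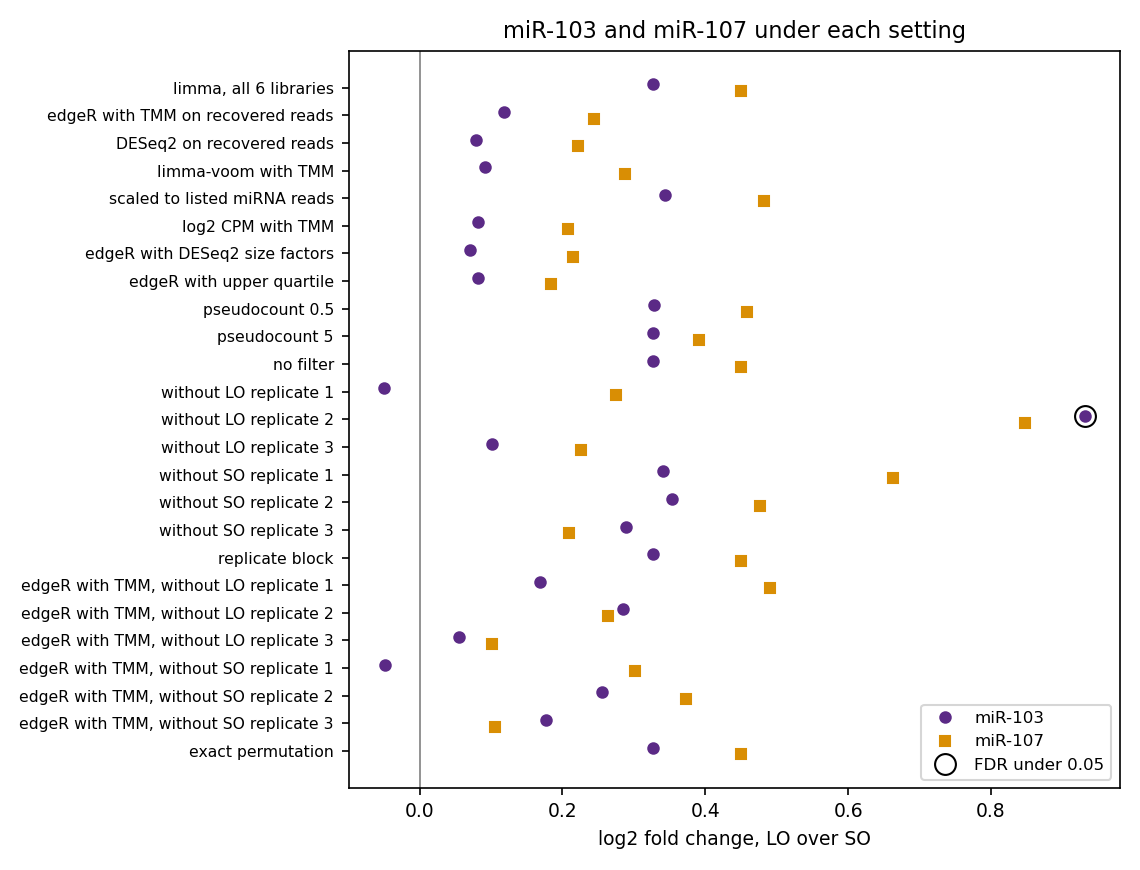
log2 fold change of LO over SO (x axis) for miR-103 (circles) and miR-107 (squares) in the limma fit with all 6 libraries and under each alternative (y axis). An open ring marks an FDR under 0.05. miR-107 stays above 0 throughout, between 0.10 and 0.85, miR-103 runs from -0.05 to 0.93, and the single ring is miR-103 without LO replicate 2.

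The level of the tested miRNAs as a whole differed between libraries, most of all between the LO libraries. Set against its mean over the 6 libraries on log2(RPM + 1), miR-103 stood at 0.92, -1.04 and 0.62 in the LO libraries and at -0.14, -0.11 and -0.24 in the SO libraries, in replicate order. The median of the 104 tested miRNAs on the same scale was 0.75, -0.63 and 0.35 in LO and 0.19, -0.11 and -0.38 in SO. miR-107 stood at 0.57, -0.57 and 0.67 in LO and at 0.20, -0.17 and -0.71 in SO. Both members therefore had the sign of the median in each LO library, and in SO the exception was miR-103 in replicate 1. In LO replicate 2, the library with the fewest listed miRNA reads (7755), miR-103 lay 0.41 below the median of that library and miR-107 lay 0.06 above it.

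**Figure D4:**
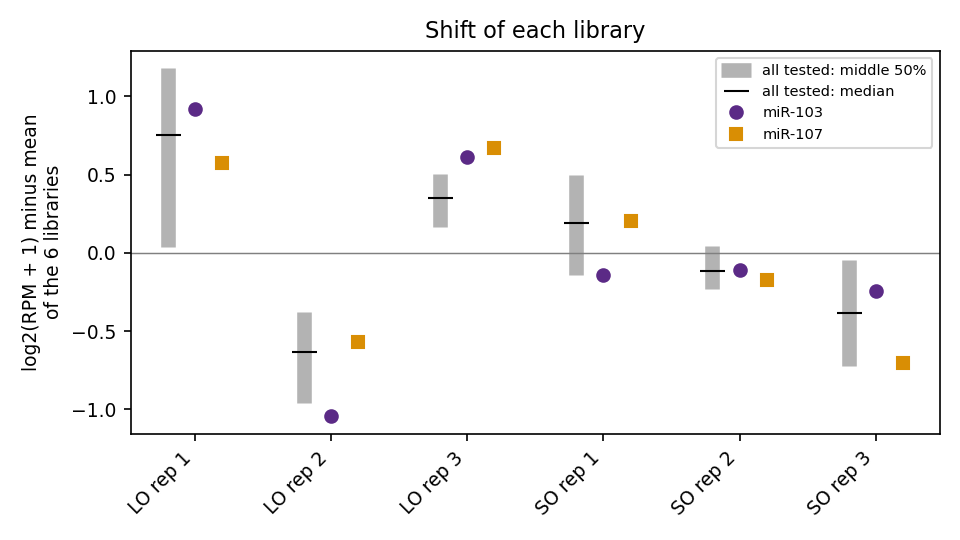
Shift of each library (x axis) on log2(RPM + 1) relative to the mean of the 6 libraries (y axis). Grey bars hold the middle 50% of the 104 tested miRNAs, black dashes their median, circles miR-103 and squares miR-107. Both members sit high in LO replicates 1 and 3 and low in LO replicate 2, where the median is -0.63.

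As a share of the listed miRNA reads, miR-103 held 2.43%, 1.12% and 2.00% in LO and 1.23%, 1.54% and 1.42% in SO. LO replicates 1 and 3 were still above every SO library and LO replicate 2 below them. Mean shares were 1.85% ± 0.668 for LO and 1.39% ± 0.157 for SO (SD over 3 libraries). miR-107 held 0.115%, 0.0903% and 0.125% in LO and 0.0923%, 0.0867% and 0.0589% in SO. Its mean share was 0.110% ± 0.0176 in LO and 0.0793% ± 0.0179 in SO, and the groups met between LO replicate 2 and SO replicate 1. By limma on these listed-read values neither member passed, with log2 fold changes of 0.34 for miR-103 and 0.48 for miR-107 (FDR 0.502 for each).

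miR-103 was uneven in LO and even in SO. Its coefficient of variation (SD over mean) in RPM was 56.2% in LO and 4.71% in SO. The SO value was close to the 3.79% that counting error alone gives and was the smallest of the 104 tested miRNAs, whose median was 25.6%. As a share of listed reads the SO value was 11.2%, with 19 of 104 miRNAs below it, so that place depends on the scaling. The wider spread in LO was shared by the table. In RPM, 85 of the 104 miRNAs (81.7%) had a larger coefficient of variation in LO than in SO, and the LO median was 51.2%. As a share of listed reads the LO value of miR-103 was 36.1%, beside a median of 36.2%. miR-107 had 41.6% in LO and 31.9% in SO in RPM, but 16.1% in LO and 22.6% in SO as a share of listed reads, so its order turned with the scaling. For miR-107 counting error alone gives 26.6% in LO and 16.2% in SO. Its LO share value lay below that, so the order is not resolved at this depth. These measures of spread were chosen after the values were seen and were not tested.

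Among the relatives, miR-103 was second to miR-16 in level. The extended family of miR-15 and miR-107 joins the members to miR-15a, miR-15b, miR-16, miR-195, miR-424-5p, miR-497 and miR-503, several of which are known to restrain cell cycle genes in mammals. miR-646, a further fixed name, was not analysed here. miR-16 was at 3306 ± 970 RPM over LO libraries and 3066 ± 589 RPM over SO libraries (SD, n = 3 each). In replicate order miR-195 had 127, 30.3 and 73.7 RPM in LO, against 64.7, 50.5 and 37.5 RPM in SO. miR-497, made from the same precursor transcript as miR-195, had 78.1, 15.2 and 47.0 RPM in LO, against 26.6, 33.9 and 13.3 RPM in SO. In both, LO replicate 1 was the highest library, and LO replicate 2 lay below the SO libraries for miR-195 and within their range for miR-497.

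The low members of the group overlapped between LO and SO as well. miR-15b ran from 2.17 to 31.3 RPM in LO and from 5.94 to 14.1 RPM in SO, and miR-424-5p from 4.33 to 10.5 RPM in LO and from 5.03 to 15.1 RPM in SO. miR-503 had a mean of 9.40 ± 4.64 RPM in LO oocytes and 13.1 ± 0.959 RPM in SO oocytes. miR-15a had 30 reads in all and was not tested. miR-103 and miR-107 together took 12.6% ± 3.78 of the reads of the 9 names in LO and 10.5% ± 1.41 in SO, and 76.8% ± 1.85 in LO and 76.9% ± 4.24 in SO once miR-16 was set aside (n = 3 each). Of the 8 tested names, 0 passed FDR 0.05 by limma, beside 0 of all 104. An unadjusted limma p under 0.05 was found for 0 of the 8, beside 4 of all 104. edgeR with TMM called 0 of the 8, beside 2 of all 104 (1.92%). Without LO replicate 2 limma called 2 of the 8, miR-103 and miR-497, beside 18 of all 104 (17.3%). On the deposited scaling 6 were higher and 2 lower in LO, with log2 fold changes from -0.52 for miR-503 to 0.72 for miR-497 and a median of 0.25, beside 0.29 for all tested miRNAs. With TMM on log2 CPM 4 were higher and 4 lower, and without LO replicate 1 in limma 2 were higher and 6 lower. Of all 104, 52.9% and 45.2% were higher in these fits.

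**Figure D5:**
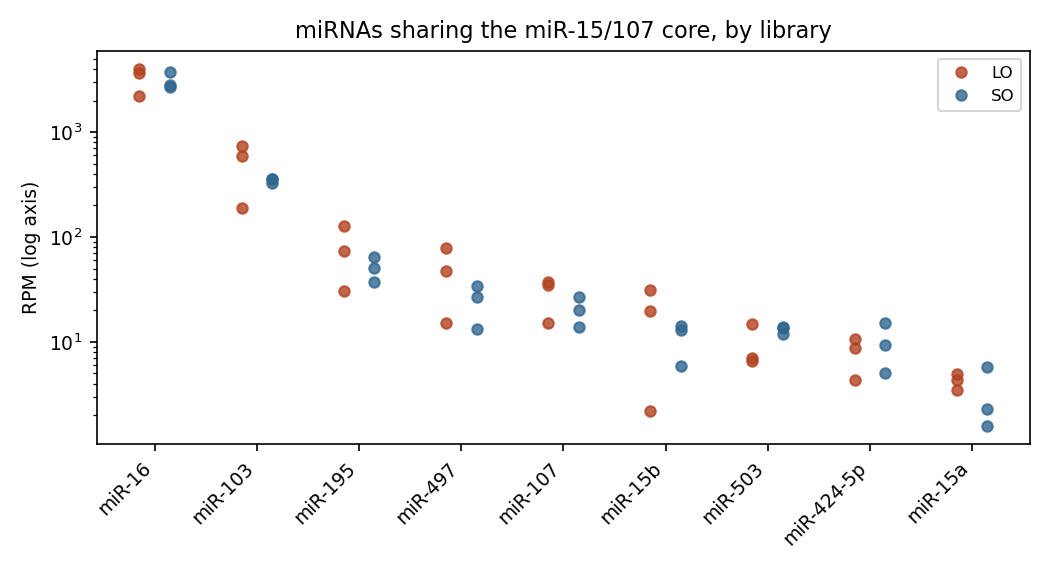
Level in RPM (y axis, log axis) of the 9 listed miRNAs of the extended miR-15 and miR-107 family (x axis, by mean level), with LO libraries in red left of SO libraries in blue. Each point is 1 library. miR-103 lies below miR-16 and above the other names, miR-107 lies beside miR-497, and LO and SO points overlap in each name.

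The members were also read beside other miRNAs known for metabolism and beside other miRNAs from introns of protein-coding genes. Of 14 metabolic names, 10 were listed and 8 tested. By limma 0 of the 8 passed FDR 0.05, beside 0 of all 104. An unadjusted limma p under 0.05 was found for 0 of the 8, beside 4 of all 104. edgeR with TMM called 0 of the 8, beside 2 of all 104 (1.92%). All 8 had higher means on log2(RPM + 1) in LO on the deposited scaling and 6 of 8 with TMM on log2 CPM, with medians of 0.46 and 0.20, beside 72 of all 104 higher and medians of 0.29 and 0.05. Without LO replicate 1 the median of the list was 0.10, with 6 higher and 2 lower, beside a median of -0.06 and 45.2% higher over all 104. When LO replicate 2 was left out, limma called 1 of the 8, beside 18 of all 104 (17.3%). miR-26a, the most abundant of them, had a mean of 303 ± 91.5 RPM in LO oocytes and 246 ± 48.7 RPM in SO oocytes. miR-27b-3p, known to restrain fat cell formation, had a mean of 145 ± 79.7 RPM in LO oocytes and 110 ± 31.9 RPM in SO oocytes. miR-29c, of a family known to act on collagens, had a mean of 58.4 ± 32.6 RPM in LO oocytes and 35.1 ± 7.61 RPM in SO oocytes.

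For the intronic miRNAs, 29 fixed names matched 24 listed mature names, of which 17 were tested. By limma 0 of the 17 passed FDR 0.05, beside 0 of all 104, and edgeR with TMM called 0, beside 2 of all 104. An unadjusted limma p under 0.05 was found for 1 of the 17, miR-152, beside 4 of all 104. limma-voom called 1 of the 17, also miR-152, beside 2 of all 104. On the deposited scaling 12 were higher and 5 lower in LO, with a median of 0.27, and with TMM on log2 CPM 10 were higher and 7 lower. Of all 104, 69.2% were higher on the deposited scaling, with a median of 0.29, and 52.9% with TMM on log2 CPM. Without LO replicate 1 the median was -0.18, with 7 higher and 10 lower, beside a median of -0.06 and 45.2% higher over all 104. When LO replicate 2 was left out, limma called 3 of the 17, beside 18 of all 104 (17.3%). miR-128 had a mean of 886 ± 252 RPM in LO oocytes and 1208 ± 242 RPM in SO oocytes, miR-26a is in both lists, and miR-7, from an intron of HNRNPK, had a mean of 219 ± 112 RPM in LO oocytes and 301 ± 66.1 RPM in SO oocytes. miR-103 therefore lay above miR-7 and below miR-128 in mean level in both groups, but in SO replicate 1 miR-103, at 354 RPM, lay below miR-7, at 371 RPM.

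The tested miRNAs whose profile over the 6 libraries was most like that of each member were found by the SD of the log2 ratio to it on log2(RPM + 1), where a small SD means a steady ratio. For miR-103 these were miR-27b-3p (SD 0.24), miR-195 (0.27), let-7g (0.29), miR-676-3p (0.29) and miR-19b (0.29). miR-107 came at place 19 of 103, at 0.37, with a median of 0.55 over all 103. For miR-107 they were miR-186 (0.20), miR-20a (0.21), miR-30c-5p (0.23), miR-30e-5p (0.23) and miR-676-3p (0.25), and miR-103 came at place 25. For these 5 the SD was below the counting error expected from the reads, which was 0.42 for miR-186, so the order among them is not resolved at this depth.

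The tables hold miRNAs only, so the oocyte label could not be checked against messenger RNA markers. Markers of granulosa and cumulus cells, the cells around the oocyte, took 1.93% to 3.82% of listed reads in LO and 1.68% to 2.55% in SO. All 8 fixed names had at least 1 read, but only 4 had enough reads to test. Over the 6 libraries miR-21 had 1992 reads, miR-31 1817 and miR-202-5p 1276. By contrast, miR-202-3p had 61, miR-132 10, miR-212 2, miR-224 1 and miR-383 1. In replicate order the share of the granulosa and cumulus markers was 3.82%, 1.93% and 2.56% in LO and 2.55%, 2.197% and 1.68% in SO. In the same order miR-103 was at 738, 189 and 598 RPM in LO and at 354, 361 and 330 RPM in SO. Those levels are scaled to the library total and not to listed reads. Theca, stroma and smooth muscle markers took 0.240% to 0.438% in LO and 0.185% to 0.324% in SO, with miR-214 at 0 reads. Blood markers took 0.0212% to 0.0645% in LO and 0.00890% to 0.199% in SO, with 5 of 6 names listed. Endothelial markers took 0.0306% to 0.0645% in LO and 0.0137% to 0.0489% in SO, muscle markers 0.0329% to 0.0774% in LO and 0.0157% to 0.0222% in SO, with miR-133b at 0 reads, and the liver marker miR-122 took 0.0258% to 0.0658% in LO and 0.00890% to 0.0903% in SO. The part of these cells in the levels of miR-103 and miR-107 was not tested.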

How the data were processed

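The 6 deposited tables, 3 LO and 3 SO, list 326 mature pig miRNAs with a sequence and 1 value. The file header calls it TPM, but within a library all values above 0 are multiples of a common step, for short and long sequences alike, so the values deposited by the authors were read as RPM. Values divided by that step were whole, within 0.01 read, in 100% of cases. The library totals recovered were 461505 to 1424130 reads in LO and 1915218 to 2187987 in SO, and the listed miRNA reads 7755 to 42541 in LO and 44964 to 55230 in SO. A count of 0 allows 2.11 to 6.50 RPM in LO and 1.37 to 1.57 RPM in SO, taking 3 reads as the limit. Libraries within LO and within SO were not duplicates, as chi-square over degrees of freedom between their reads was 2.71 to 16.8. Per the submitters' processing notes, bcl2fastq, cutadapt, Bowtie2 2.2.2, edgeR and the build Sscrofa10.2 were used, with no role or order. The sources used here do not say whether the molecular identifiers of the QIAseq kit were used.

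The main test was limma 3.58.1 in R 4.3.3 with a trend on log2(RPM + 1), group as the only term, on the 104 miRNAs passing edgeR's filterByExpr. Of the 326 names, 242 had at least 1 read. edgeR 4.0.16, DESeq2 1.42.0 and limma-voom on recovered reads, other scalings, pseudocounts, no filter, each library left out and the replicate number as a block were alternatives. The fits were tested on simulated data. Exact permutation tests used scipy 1.17.1. Names given besides the members are the extended miR-15 and miR-107 family, the 5 closest profiles, the neighbours in level and, from each further list, the 3 tested names with the highest means. Cell type markers with few or no reads are named as well. The members and lists were chosen with earlier results of these data known. Coordinates are left out, since the RefSeq gene table follows Sscrofa11.1.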

Additional observations from a re-analysis of the deposited data

How the results depend on the processing

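Over 24 alternatives the log2 fold change of miR-107 stayed between 0.10 and 0.85 with no call. That of miR-103 was above 0 in 22 of 24. For both members, no filter, the replicate block and the exact permutation return the fold change of the main fit by construction. In limma the lowest value of miR-103 was -0.050 when LO replicate 1 was left out and its highest 0.93 when LO replicate 2 was. In edgeR with TMM its lowest value was -0.048, when SO replicate 1 was left out, and its highest 0.28. The cause was not tested. The count of miRNAs called, 0 in limma, was 2 in edgeR with TMM, 2 with DESeq2 size factors in edgeR, 2 in limma-voom and 0 in DESeq2. It ran from 0 to 18 with 1 library left out in limma and from 0 to 4 in edgeR, where the edgeR fits with a library left out were chosen after the data were seen.

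The difference in log2 ratio between LO and SO ran from -0.35 to 0.076 with 1 library left out. Leaving out LO replicate 2 gave 0.051 and leaving out SO replicate 3 gave 0.076. The mean log2 ratio over libraries ran from 3.99 to 4.18, with an exact sign-flip permutation p of 0.0625, the smallest that 5 libraries allow. The labels do not say whether same-numbered libraries belong together, and the main fit did not pair them. Deviations of same-numbered libraries from group means correlated at -0.34 to 0.08 over 104 miRNAs. Of the 6 libraries, 1 correlated best with its own number. With 3 libraries per group this cannot show whether same-numbered libraries shared a batch. With the replicate number as a block no call changed: 0 miRNAs were called, with a limma FDR of 0.853 for each member. The fold changes, 0.33 for miR-103 and 0.45 for miR-107, cannot move under a balanced block. Nor can the ratio difference of -0.14 (exact sign-flip permutation p = 1). The 7 to 53 reads of miR-107 in LO limit what its ratio can show.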

Other observations

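Other tested names also form near-identical pairs. Among the tested names the pairs were picked by sequence alone, with at most 1 difference over the shorter name, and their ratios were not tested. let-7a was 0.66 above let-7f on log2(RPM + 1), with an SD of 0.19 over the 6 libraries. miR-30a-5p was 1.64 above miR-30d (SD 0.27) and 2.14 above miR-30e-5p (SD 0.66), and let-7a was 3.85 above let-7e (SD 0.28). On this scale miR-103 was 4.02 above miR-107 (SD 0.37), the widest gap of the 11 such pairs, where the next was the let-7a and let-7e pair. Names with too few reads to test were not searched, so pairs with a very low second name, and possibly wider gaps, are missing. let-7a was 1.46 above let-7c (SD 0.42), miR-23b was 2.43 above miR-23a (SD 0.64) and miR-100 was 0.59 above miR-99a (SD 0.78). miR-30a-3p was 1.56 above miR-30e-3p (SD 0.93). miR-9-2 and miR-9-1 had 0 differences over the bases compared, as had miR-339-5p and miR-339. The lower names of these pairs, miR-9-1 and miR-339, still held 106 and 55 reads. How reads were assigned between such names was not tested. Counting error alone gives an SD of 0.33 for miR-103 and miR-107, 0.09 for let-7a and let-7c and 0.24 for miR-100 and miR-99a. For miR-30a-3p and miR-30e-3p it gives 0.77.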
